A study of Sus scrofa with 9 samples.

Results

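The proteins that carry a nascent secretory protein into the endoplasmic reticulum (ER), cut off its signal peptide and pack it into coated vesicles were followed through late pregnancy and lactation in the mammary gland of the sow. Members were chosen by gene symbol. The rule uses no measured values, but the choice was made with earlier results of these data known. Members have symbols with SEC, SSR, SPCS, TMED, TRAM, LMAN or KDELR followed by a digit, SRP (not SRPK or SRPX, and with SRPRA and SRPRB counted in), COPA, COPB, COPE, COPG, COPZ and SAR1. They made up 90 of 24123 probe sets, of which 82 were tested, and 54 of the 6765 genes with a probe set of their own, of which 52 were tested. The tissue came from repeated biopsies of 6 Large White sows fed corn and soybean meal: in late pregnancy, 17 days short of farrowing (day -17), at the onset of lactation (day 1) and in established lactation (day 17). The labels allow 2 days around day -17 and day 17. The labels name no treatment. Equal volumes of total RNA from 2 sows were combined for each Affymetrix porcine GeneChip, which gave 3 pools on each day and 9 arrays. A biopsy holds every cell type of the gland, so fewer cells of a type and less RNA per cell cannot be told apart. Because each sample already averages 2 sows, the p-values below measure the spread between pools, not between sows.

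Secretory proteins are recognised while they are still being made. The signal recognition particle binds the signal sequence as it leaves the ribosome and docks at its receptor on the ER, where the SEC61 channel, with its SSR (TRAP), TRAM, SEC62 and SEC63 partners, takes the chain in and signal peptidase trims it. COPII coats then bud cargo from the ER towards the Golgi, COPI coats return membrane and escaped ER residents, and TMED, LMAN and KDELR proteins act as cargo receptors in these vesicles. In the lactating gland this route carries the caseins and whey proteins of milk, made by the secretory epithelium.

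The milk protein genes tracked the labelled stages: 6 of 7 rose from day -17 to day 1, led by WAP, a whey protein (log2 difference 5.41 ± 0.23, adjusted p = 7.77e-07), and LALBA, the lactose synthase cofactor (5.15 ± 0.30, adjusted p = 4.4e-06). The deposited signals had nearly the same mean on each array (500.088 to 500.112 after trimming 2% at each end), so every direction given here is relative to the average signal of an array. The precision of these values is limited by the number of arrays. Pools of 1 day had Spearman correlations of 0.954 to 0.976 over probe sets. Day 1 pool 1 stood apart from the other 2 pools of its day: its members had a median deviation of 0.10 from their 9-pool mean (log2), against 0.29 in pool 2 and 0.41 in pool 3. In that pool the summed signal of 7 fibroblast genes was 58451 against 21541 and 29694, and that of 7 milk protein genes was 216822 against 284876 and 304308. The member counts that use day 1 are also given without it.

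**Figure D1:**
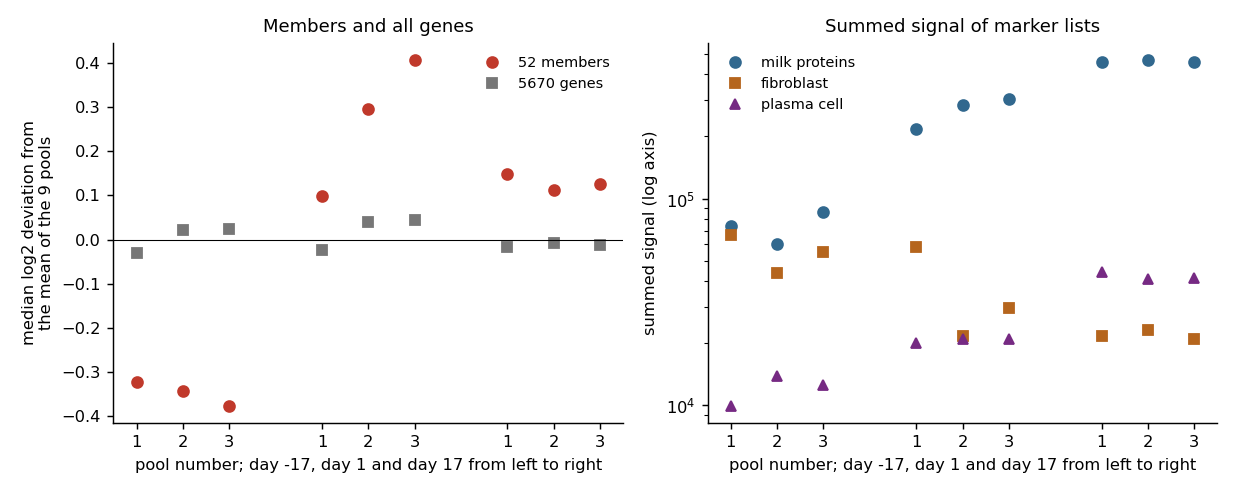
Left, the median log2 deviation of 52 members (circles) and of 5670 genes (squares) from their mean over the 9 pools, by pool, with pools 1 to 3 of each day side by side. Members sit between -0.38 and -0.32 on day -17, between 0.10 and 0.41 on day 1 and between 0.11 and 0.15 on day 17. Right, the summed signal of milk protein, fibroblast and plasma cell genes in the same pools, on a log axis.

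From day -17 to day 1, 35 of the 52 tested member genes rose and 1 fell, with 16 that did not pass (limma, Benjamini-Hochberg adjusted p under 0.05). Over all 5670 tested genes 15.3% rose and 10.4% fell. The median member difference was 0.57 on the log2 scale, against -0.00082 over all genes, and 45 of the 52 lay above that median. All 3 values of day 1 lay above all 3 of day -17 for 42 members and below for 2, while 41.3% of all genes were without overlap in either direction. Leaving out day 1 pool 3 gave 27 rises and leaving out day 1 pool 1 gave 37, and the count of falls was 2 without day -17 pool 2, day 1 pool 1 or 2, or day 17 pool 1. There were 17 rises and 5 falls when each array was scaled to its 21 spiked E. coli control probe sets, where 6.56% of all genes rose and 39.7% fell. Under that scaling 17 of the 35 rises kept their sign without passing (SSR2, SSR4, SEC61G, SEC62, SEC11A, SRP14, SRP19, SRP72, SAR1B, COPA, COPB1, COPZ1, TMED2, TMED5, TMED10, LMAN2 and SEC14L1) and SEC63 turned to -0.011. By probe set, 53 of 82 rose and 1 fell, against 12% and 12.1% of the 15519 tested.

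From day 1 to day 17, 1 of 52 members rose (1.92%), 7 fell (13.5%) and 44 did not pass, against 8.02% and 8.57% of all genes. The median difference was -0.08 beside -0.04 over all genes. The values did not overlap for 9 members that were above and 16 that were below, against 37.6% of all genes. The count of rises was 0 without day 17 pool 2 or 3 and 5 without day 1 pool 3. The count of falls was 2 without day 17 pool 3, 3 without day 1 pool 3, 4 without day 1 pool 2 or day 17 pool 1 or 2, and 10, with 1 rise, without day 1 pool 1. With E. coli scaling 0 rose and 49 fell, against 0.723% and 76.6% of all genes. Between the ends of the series, 27 members were higher on day 17 than on day -17 and 4 were lower, with 21 that did not pass, against 23.8% higher and 23.8% lower over all genes. Leaving out day -17 pool 2 or pool 3 reduced the count of lower members to 2 and 1. Their median of 0.47, beside -0.03 over all genes, turned to -0.83 with E. coli scaling, where 3 members were higher and 40 lower, against 3.16% and 83.8% of all genes. That scaling shifts every gene by the same amount (0.43, 0.87 and 1.30 in the 3 comparisons, in the order given), so the members' median stayed 0.57 above, 0.05 below and 0.50 above that of all genes. The 3 comparisons share days, and so are not independent of each other.

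**Figure D2:**
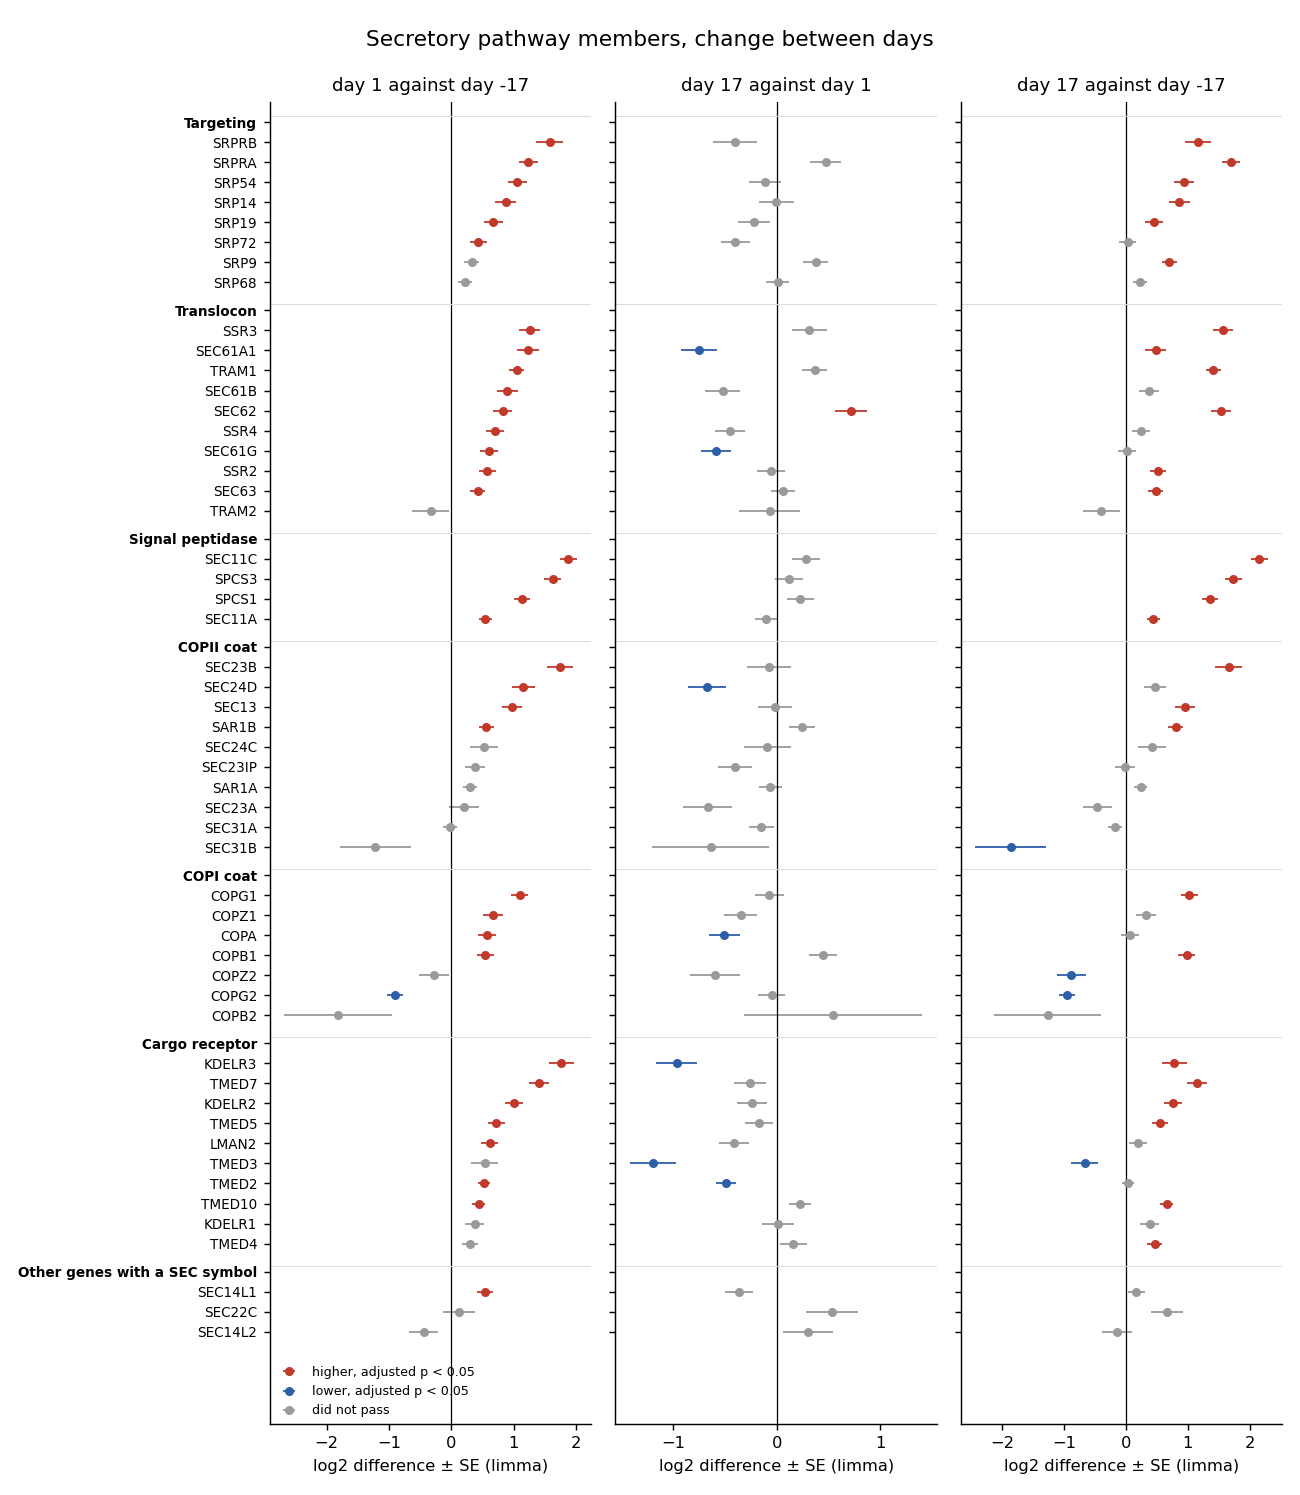
Log2 difference of each of the 52 tested member genes, by role, in 3 comparisons of days (points, with the limma SE as bars). Red points are higher and blue points lower at an adjusted p under 0.05, and grey points did not pass. Day 1 against day -17 shows 35 red points and 1 blue, day 17 against day 1 shows 1 red and 7 blue, and day 17 against day -17 shows 27 red and 4 blue, of which E. coli scaling turned 19 red ones below 0. With that scaling the counts of higher and lower members were 17 and 5, 0 and 49, and 3 and 40.

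Put in sequence, the most frequent course was a rise by day 1 with no later call and a level on day 17 above that of day -17, which 22 members had. With E. coli scaling 3 members stayed called higher on day 17 than on day -17: SEC11C, SPCS3 and SRPRA. Another 5 kept their sign without passing (TRAM1, SPCS1, SSR3, SEC62 and SEC23B), and 19 turned below 0. SEC62 rose at both steps. KDELR3 and SEC61A1 rose and then fell but stayed higher on day 17 than on day -17, and COPA, SEC24D, SEC61G and TMED2 rose and fell with no call between day 17 and day -17. COPG2 fell to day 1 and remained lower. Mean linear signal was highest on day 1 for 29 members, on day 17 for 16 and on day -17 for 7.

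Counts by role can be read against all genes, of which 15.3% rose and 10.4% fell by day 1. The shares were 8.02% and 8.57% from day 1 to day 17, and 23.8% and 23.8% over both. Of the 8 tested genes of targeting to the ER, 6 rose by day 1 (median 0.77, 0.34 with E. coli scaling). None passed from day 1 to day 17, and 6 were higher on day 17 than on day -17 (median 0.78, turned to -0.52 with E. coli scaling). For the targeting genes, E. coli scaling gave 3 higher and 0 lower by day 1, 0 and 8 from day 1 to day 17, and 1 and 6 over both, and leaving out 1 array gave 5 to 6 and 0, 0 to 1 and 0 to 1, and 5 to 6 and 0. SRPRB, the membrane-anchored subunit of the receptor for the signal recognition particle, had signals of 621, 629 and 758 on day -17, 1454, 1904 and 2804 on day 1, and 1533, 1522 and 1434 on day 17, given as in all such sentences for pools 1, 2 and 3. All day 1 and day 17 pools lay above all day -17 pools, while the pools of day 1 and day 17 overlapped. On day 17 against day -17 the difference was 1.17 ± 0.21 (adjusted p = 0.00156) but -0.14 with E. coli scaling. The rise by day 1 was 2.97-fold, a log2 difference of 1.57 ± 0.21 (SE, n = 3 pools per day, as below), with an adjusted p of 0.000884 in limma. SRPRA, the receptor subunit that binds the particle and GTP, went up by 1.23 ± 0.15 (adjusted p = 0.000568) and was 1.70 ± 0.15 higher on day 17 than on day -17 (adjusted p = 2.87e-05). Of the particle itself, SRP54, which holds the signal sequence, rose by 1.06 ± 0.16 (adjusted p = 0.00162), and SRP14, a partner of SRP9 in the domain that slows translation, by 0.87 ± 0.17 (adjusted p = 0.00606, 0.44 with E. coli scaling, not passing at an adjusted p of 0.0778). SRP9 differed by 0.33 ± 0.12 on day 1, which did not pass (adjusted p = 0.0705), and passed on day 17 against day -17 (0.70 ± 0.12, adjusted p = 0.00109, turned to -0.60 with E. coli scaling).

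SRP19, which helps the RNA of the particle to fold with SRP54, rose by 0.67 ± 0.15 by day 1 (adjusted p = 0.0114) and by 0.45 ± 0.15 over the whole interval (adjusted p = 0.0328, turned to -0.85 with E. coli scaling). Its other tested probe set had the opposite sign without passing (-0.26 and -0.28), and both calls were lost in the mean over the probe sets. The call on day 17 against day -17 did not hold without day -17 pool 1 or 3 or day 17 pool 1, 2 or 3 (adjusted p 0.0572 to 0.114) or with the mean over its probe sets or with no intensity trend (adjusted p = 0.64 and 0.0545), in a range of 0.0123 to 0.64 over 19 alternatives of the same sign. The day 1 call did not hold with E. coli scaling or with the mean over its probe sets (adjusted p = 0.202 and 0.323), in a range of 0.00259 to 0.323 over 20 alternatives. SRP72 and SRP68 form a heterodimer on the particle. SRP72 rose by 0.43 ± 0.14 by day 1 (adjusted p = 0.046), and SRP68 did not pass in any comparison (0.21, 0.01 and 0.22). The SRP72 call did not hold without day -17 pool 1, 2 or 3, day 1 pool 2 or 3 or day 17 pool 1, 2 or 3 (adjusted p 0.0539 to 0.151) or with E. coli scaling, with no filter, with no intensity trend or in a fit of the 6 compared pools alone (adjusted p 0.0588 to 0.985), in a range of 0.00501 to 0.985 over 20 alternatives. Another tested probe set of SRP72 was called higher by 0.90 by day 1. It was also called higher on day 17 than on day -17, by 0.56, which is less than the shift of 1.30 under E. coli scaling.

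The translocon and its partners rose almost as a whole: 9 of 10 tested genes were higher on day 1 than on day -17 (median 0.76, 0.33 with E. coli scaling), and TRAM2 differed by -0.33 ± 0.29 without passing (adjusted p = 0.443). That count was 6 without day 1 pool 3. From day 1 to day 17, 1 rose and 2 fell (4 falls without day 1 pool 1, 1 without day 1 pool 2 or day 17 pool 3, and 0 without day 1 pool 3 or day 17 pool 1 or 2), and on day 17 against day -17, 6 were higher and 0 lower (median 0.48, turned to -0.82 with E. coli scaling). For the translocon genes, E. coli scaling gave 4 higher and 0 lower by day 1, 0 and 9 from day 1 to day 17, and 0 and 7 over both, and leaving out 1 array gave 6 to 9 and 0 to 1, 0 to 2 and 0 to 4, and 5 to 7 and 0. SSR3, a subunit of the TRAP complex that assists entry of some proteins, had signals of 2929.9, 2677 and 2994 on day -17, 5408, 6720.1 and 8768 on day 1, and 7622, 8588 and 9387 on day 17. Every pool of day 1 and day 17 exceeded every pool of day -17, although on day 17 the difference of 1.57 ± 0.17 became 0.27 with E. coli scaling, not passing at an adjusted p of 0.116. SSR3 was thus 2.39-fold higher on day 1 (log2 1.25 ± 0.17, adjusted p = 0.000854). SSR2 and SSR4, of the same complex, rose by 0.57 ± 0.14 (adjusted p = 0.0139) and 0.69 ± 0.15 (adjusted p = 0.00824, 0.26 with E. coli scaling, not passing at an adjusted p of 0.126). The SSR2 call did not hold without day 1 pool 3 (adjusted p = 0.0542) or with E. coli scaling (adjusted p = 0.329), in a range of 0.0011 to 0.329 over 20 alternatives. TRAM1, which contacts the chain as it enters, rose by 1.05 ± 0.12 (adjusted p = 0.000418).

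On the probe set of highest mean log2 signal of each gene, all 3 tested subunits of the SEC61 channel had their highest mean signal on day 1. SEC61A1, which forms the pore, had signals of 1124, 955 and 1274 on day -17, 2177, 2528 and 3195 on day 1, and 1499, 1389 and 1781 on day 17. Day 1 was above both other days in every pool, and day 17 lay above day -17 in every pool. It rose 2.34-fold by day 1 (log2 1.23 ± 0.18, adjusted p = 0.00124) and fell to 0.595 of that level by day 17 (-0.75 ± 0.18, adjusted p = 0.0212). The fall did not hold without day 1 pool 3 or day 17 pool 1 or 2 (adjusted p 0.0638 to 0.0774) or with the mean over its probe sets (adjusted p = 0.257), in a range of 4.59e-05 to 0.257 over 20 alternatives. The remaining rise on day 17 over day -17, 0.48 ± 0.18 (adjusted p = 0.0449), turned to -0.82 with E. coli scaling. This call did not hold without day -17 pool 1 or 2, day 1 pool 2 or day 17 pool 1, 2 or 3 (adjusted p 0.0531 to 0.15) or with no filter or with no intensity trend (adjusted p = 0.0533 and 0.0695), in a range of 0.00164 to 0.15 over 19 alternatives of the same sign. A second tested probe set of SEC61A1 was called higher by 1.05 by day 1 and differed by 0.19 from day 1 to day 17, without passing. It was also called higher on day 17 than on day -17, by 1.24, which is less than the shift of 1.30 under E. coli scaling. The fall from day 1 to day 17 was thus seen on 1 of the 2 probe sets. SEC61G, a small subunit, had signals of 4072, 4348 and 3429.5 on day -17, 5027, 6125 and 6943 on day 1, and 3666, 3975 and 4284 on day 17. The pools of day 17 overlapped with those of day -17 and lay below every pool of day 1. SEC61G rose by 0.61 ± 0.15 (adjusted p = 0.0149) and then fell by 0.59 ± 0.15 (adjusted p = 0.0257). The rise did not hold without day -17 pool 3 or day 1 pool 3 (adjusted p = 0.0594 and 0.0576) or with E. coli scaling (adjusted p = 0.316), in a range of 0.00414 to 0.316 over 20 alternatives. The later fall did not hold without day 1 pool 2 or 3 or day 17 pool 1, 2 or 3 (adjusted p 0.0547 to 0.0878) or with no intensity trend (adjusted p = 0.0547), in a range of 4.59e-05 to 0.0878 over 20 alternatives. SEC61B, the other small subunit, rose by 0.90 ± 0.17 by day 1 (adjusted p = 0.0047), and its difference of -0.52 ± 0.17 from day 1 to day 17 did not pass (adjusted p = 0.0648).

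SEC62 took the opposite course in the second interval. This partner of SEC63 helps small proteins to enter after translation and also marks ER for autophagy. Its signals were 3152, 2185 and 2225 on day -17, 4897, 3858 and 4457 on day 1, and 7037, 7262 and 7353 on day 17. The 3 days did not overlap and stood in the order of time. SEC62 rose by 0.82 ± 0.16 by day 1 (adjusted p = 0.00489, 0.39 with E. coli scaling, not passing at an adjusted p of 0.0827) and again by 0.72 ± 0.16 by day 17 (adjusted p = 0.0156), where it was 2.91-fold above day -17 (log2 1.54 ± 0.16, adjusted p = 5.5e-05, and 0.24 with E. coli scaling). In the main fit, which had no block, no other member was called higher on day 17 than on day 1. SRPRA was called too with pools blocked by number, fixed or random, and COPB1 and SRP9 with the random block. Some settings without a block also gave more rises: 5 without day 1 pool 3, 3 with the 60th percentile filter and 2 after quantile normalization. With E. coli scaling the second step of SEC62 turned to -0.15. The second rise did not hold without day 17 pool 2 or 3 (adjusted p = 0.0512 and 0.0554), in a range of 0.00663 to 0.0554 over 19 alternatives of the same sign. SEC63, which brings the chaperone HSPA5 to the channel, rose by 0.42 ± 0.11 by day 1 (adjusted p = 0.0253), a value that E. coli scaling turned to -0.011, and differed by 0.06 ± 0.11 in the second interval without passing (adjusted p = 0.752). The SEC63 call did not hold without day -17 pool 2 or 3 or day 1 pool 2 or 3 (adjusted p 0.0675 to 0.0838) or with no intensity trend or in a fit of the 6 compared pools alone (adjusted p = 0.0546 and 0.0636), in a range of 0.013 to 0.0838 over 19 alternatives of the same sign.

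**Figure D3:**
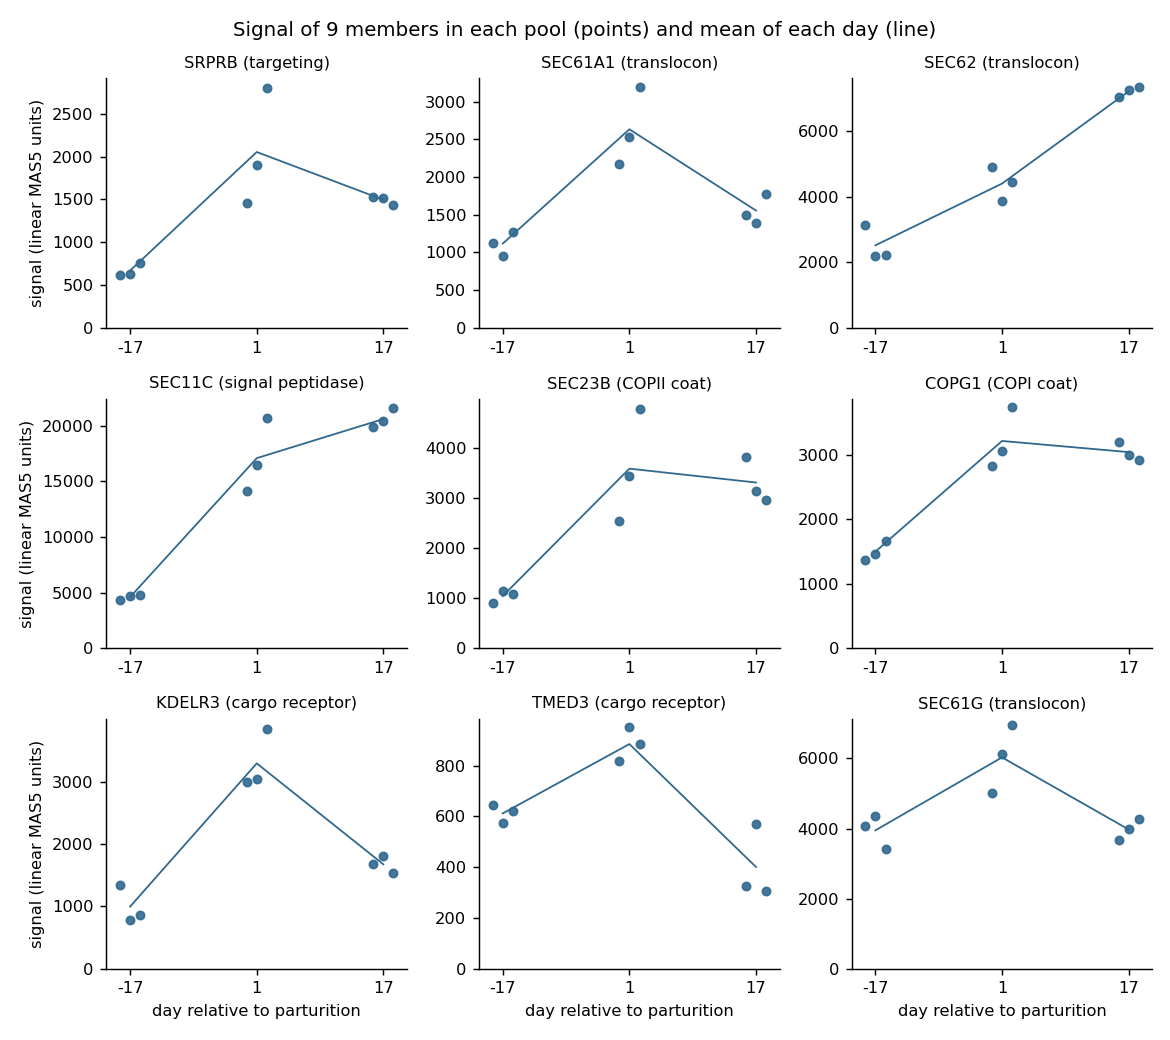
Signal on a linear scale of 9 members in each pool (points, pools 1 to 3 from left to right on each day) and the mean of each day (line), from day -17 to day 17. SEC62 climbs at both steps, SEC11C, SEC23B and COPG1 stay high on day 17, and SEC61A1, SEC61G, KDELR3 and TMED3 are highest on day 1. With E. coli scaling the second step of SEC62 turned to -0.15 (log2), and on day 17 against day -17 COPG1 turned to -0.28, SEC61A1 to -0.82 and KDELR3 to -0.52, while SEC23B was at 0.36 and SEC62 at 0.24 without passing.

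All 4 tested signal peptidase genes rose by day 1 (median 1.37, 0.94 with E. coli scaling) and all 4 were higher on day 17 than on day -17 (median 1.55, 0.24 with E. coli scaling, with SEC11A turned to -0.86), with none passing between day 1 and day 17. For the signal peptidase genes, E. coli scaling gave 3 higher and 0 lower by day 1, 0 and 4 from day 1 to day 17, and 2 and 1 over both, and leaving out 1 array gave 4 and 0, 0 to 1 and 0, and 4 and 0. Of the whole set these were the largest role medians in both comparisons. SPCS2 was below the filter on low signals and was not tested. SEC11C, 1 of the alternative catalytic subunits, had signals of 4347, 4678 and 4807 on day -17, 14158, 16449 and 20666 on day 1, and 19865, 20398 and 21558 on day 17. The pools of day -17 lay close together, and each later pool was far above them. SEC11C rose 3.67-fold by day 1 (log2 1.87 ± 0.13, adjusted p = 2.2e-05), the largest called rise among the members, and was 4.47-fold above day -17 on day 17 (adjusted p = 2.93e-06). SEC11A, the other catalytic subunit, had signals of 2917, 2894 and 3239 on day -17, 4070.2, 4736 and 4396 on day 1, and 4143, 4164 and 3991 on day 17. All its later pools were also above day -17, but its rise was smaller, 0.54 ± 0.11 (adjusted p = 0.00598, 0.11 with E. coli scaling, not passing at an adjusted p of 0.39). The accessory subunits SPCS3 and SPCS1 rose by 1.62 ± 0.14 (adjusted p = 5.99e-05) and 1.13 ± 0.13 (adjusted p = 0.000385).

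In the COPII coat the rise was partial. By day 1, 4 of 10 tested genes rose and 0 fell (median 0.45, 0.02 with E. coli scaling), and 1 fell from day 1 to day 17. On day 17 against day -17, 3 were higher (30%, near the 23.8% of all genes) and 1 was lower (10%). The median of that comparison was 0.33, turned to -0.97 with E. coli scaling. For the COPII genes, E. coli scaling gave 3 higher and 2 lower by day 1, 0 and 10 from day 1 to day 17, and 0 and 8 over both, and leaving out 1 array gave 4 to 5 and 0 to 1, 0 and 0 to 1, and 3 to 4 and 0 to 1. SEC23B, an inner coat subunit that acts on the GTPase SAR1, had signals of 898, 1145 and 1086 on day -17, 2532, 3433 and 4778 on day 1, and 3807, 3144 and 2964 on day 17. Its day 1 and day 17 pools overlapped with each other and lay far above day -17, although the day 17 difference of 1.66 ± 0.21 became 0.36 with E. coli scaling, not passing at an adjusted p of 0.106. The rise was 3.34-fold (log2 1.74 ± 0.21, adjusted p = 0.000562). Its paralogue SEC23A had signals of 1105, 756 and 744 on day -17, 1313, 802 and 905 on day 1, and 649, 746 and 491 on day 17, which overlapped between day -17 and day 1, and it passed in no comparison (0.21 ± 0.24, adjusted p = 0.56 for day 1), although the fixed pool block called it lower on day 17 than on day 1 (adjusted p = 0.0391). SEC24D, a subunit that selects cargo, had signals of 766, 721 and 659 on day -17, 1614, 1465 and 1687 on day 1, and 1111, 1187 and 744 on day 17. Each of its day 1 pools was above every pool of the other days. SEC24D rose by 1.15 ± 0.18 (adjusted p = 0.0019) and fell by 0.67 ± 0.18 afterwards (adjusted p = 0.0342). That fall did not hold without day -17 pool 3, day 1 pool 1, 2 or 3 or day 17 pool 1 or 3 (adjusted p 0.0501 to 0.0924) or with no intensity trend or in a fit of the 6 compared pools alone (adjusted p = 0.0552 and 0.0561), in a range of 0.000133 to 0.0924 over 20 alternatives.

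SEC13, of the outer COPII cage, rose by 0.97 ± 0.16 by day 1 (adjusted p = 0.00287), and SAR1B, the GTPase that starts coat assembly, by 0.56 ± 0.13 (adjusted p = 0.0112, 0.13 with E. coli scaling, not passing at an adjusted p of 0.433). SEC31A, the partner of SEC13 in the cage, differed by -0.02 ± 0.12 and did not pass (adjusted p = 0.899), although another of its probe sets was 0.73 higher on day 17 than on day -17 (adjusted p = 0.0346). SEC31B had signals of 248, 319 and 333 on day -17, 135, 143 and 107 on day 1, and 25.9, 122 and 173 on day 17, of which 1, on day 17, was under the filter level (82.1 to 94.2 by array). Its day 17 value was 1.86 ± 0.57 below day -17 on the log2 scale (adjusted p = 0.0216), a comparison that rests on dim signals. The SEC31B call did not hold without day -17 pool 2 or 3 (adjusted p = 0.0564 and 0.064), in a range of 0.000434 to 0.064 over 19 alternatives. SEC24C, SEC23IP and SAR1A passed in no comparison, with day 1 differences of 0.52, 0.38 and 0.30.

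In the COPI coat calls went in both directions. Of 7 tested subunits 4 rose and 1 fell by day 1 (median 0.54, 0.11 with E. coli scaling), and leaving out day 1 pool 3 or day -17 pool 3 cut the rises to 1 and 2. The rises were 57.1% against 15.3% of all genes, and the fall was 14.3%, near the 10.4% of all genes. A single subunit fell from day 1 to day 17. On day 17 against day -17, 2 were higher and 2 lower, 28.6% each, near the 23.8% of all genes in each direction. The median of that comparison was 0.06, turned to -1.24 with E. coli scaling. For the COPI genes, E. coli scaling gave 1 higher and 2 lower by day 1, 0 and 6 from day 1 to day 17, and 0 and 6 over both, and leaving out 1 array gave 1 to 4 and 1 to 2, 0 to 1 and 0 to 1, and 2 and 1 to 2. The 2 gamma subunits moved apart. COPG1 had signals of 1371, 1462 and 1668 on day -17, 2834, 3065 and 3751 on day 1, and 3205, 3004 and 2922 on day 17, and COPG2 had 2635, 3139 and 2994 on day -17, 1478, 1781 and 1442 on day 1, and 1391, 1489 and 1650.5 on day 17. Every day 1 and day 17 pool of COPG1 was above, and every such pool of COPG2 below, all pools of day -17. With E. coli scaling the day 17 difference of COPG1 from day -17 turned from 1.02 ± 0.14 to -0.28, and that of COPG2 was -2.26. COPG1 rose 2.14-fold (log2 1.10 ± 0.14, adjusted p = 0.000571), while COPG2 fell to 0.535 of its day -17 level (-0.90 ± 0.13, adjusted p = 0.00155) and was lower on day 17 than on day -17 too (-0.95 ± 0.13, adjusted p = 0.000385).

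COPA, the alpha subunit, had signals of 2906, 2903 and 2642 on day -17, 3752, 3855 and 5055 on day 1, and 3447, 2675 and 2758 on day 17. The values of day 17 overlapped with those of day -17. COPA rose by 0.57 ± 0.15 by day 1 (adjusted p = 0.0213) and fell by 0.51 ± 0.15 by day 17 (adjusted p = 0.0483). Its rise did not hold without day -17 pool 3 or day 1 pool 3 (adjusted p = 0.0731 and 0.0726) or with E. coli scaling (adjusted p = 0.414), in a range of 0.0139 to 0.414 over 20 alternatives. Its fall did not hold without day -17 pool 1, 2 or 3, day 1 pool 2 or 3 or day 17 pool 2 or 3 (adjusted p 0.0571 to 0.147) or with pools blocked by number, with each array centred on its median, with no filter, with no intensity trend or in a fit of the 6 compared pools alone (adjusted p 0.0505 to 0.086), in a range of 5.16e-05 to 0.147 over 20 alternatives. COPB1, the beta subunit, rose by 0.54 ± 0.14 by day 1 (adjusted p = 0.0189) and COPZ1, a zeta subunit, by 0.67 ± 0.16 (adjusted p = 0.0145). The COPB1 call did not hold without day -17 pool 2 or 3 or day 1 pool 3 (adjusted p 0.0512 to 0.0621) or with E. coli scaling or in a fit of the 6 compared pools alone (adjusted p = 0.471 and 0.0505), in a range of 0.00276 to 0.471 over 20 alternatives. The COPZ1 call did not hold without day 1 pool 3 (adjusted p = 0.0576) or with E. coli scaling (adjusted p = 0.184), in a range of 0.00546 to 0.184 over 20 alternatives. COPZ2, its paralogue, was lower on day 17 than on day -17 by 0.88 ± 0.24 (adjusted p = 0.0128). The COPZ2 call did not hold without day -17 pool 3 (adjusted p = 0.0523), in a range of 1.78e-05 to 0.0523 over 20 alternatives. COPB2 was above the filter level on some arrays only and passed in no comparison.

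Among 10 tested cargo receptors 7 rose by day 1 and 0 fell (median 0.57, 0.14 with E. coli scaling). From day 1 to day 17, 3 fell (1 without day 17 pool 3), and on day 17 against day -17, 6 were higher and 1 lower (median 0.51, turned to -0.80 with E. coli scaling). For the cargo receptors, E. coli scaling gave 3 higher and 0 lower by day 1, 0 and 10 from day 1 to day 17, and 0 and 9 over both, and leaving out 1 array gave 6 to 8 and 0, 0 and 1 to 4, and 6 to 7 and 0 to 1. KDELR3, a receptor that returns escaped ER chaperones, had signals of 1349, 787 and 854 on day -17, 2989.6, 3040.0 and 3844 on day 1, and 1673, 1813 and 1534 on day 17. Day -17 pool 1 was the highest of its day, and all pools of day 1 were above all others. KDELR3 rose 3.38-fold by day 1 (log2 1.76 ± 0.20, adjusted p = 0.000371) and fell to 0.511 of that level by day 17 (-0.97 ± 0.20, adjusted p = 0.0133). On day 17 it was still 0.79 ± 0.20 above day -17 (adjusted p = 0.00945), which turned to -0.52 with E. coli scaling. The KDELR3 fall did not hold without day 17 pool 3 (adjusted p = 0.0524) or with the mean over its probe sets (adjusted p = 0.221), in a range of 8.1e-05 to 0.221 over 20 alternatives. Of its other 2 tested probe sets, both rose by day 1 (2.39 and 2.85) and neither passed afterwards (-0.71 and 0.21). KDELR2 rose by 1.00 ± 0.15 by day 1 (adjusted p = 0.00144), and KDELR1 passed in no comparison (0.37 ± 0.15 on day 1, adjusted p = 0.101). Of the 3 tested probe sets of KDELR2 only 1 was called by day 1. The others differed by 0.32 and 0.67 (adjusted p = 0.126 and 0.0629), while the mean over its probe sets kept the day 1 call. KDELR2 was also higher on day 17 than on day -17 (0.76 ± 0.15, adjusted p = 0.00219), turned to -0.54 with E. coli scaling. This last call did not hold with the mean over its probe sets (adjusted p = 0.0677), in a range of 0.00132 to 0.0677 over 19 alternatives of the same sign.

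The TMED proteins, the p24 family of vesicle membrane proteins, went in more than 1 direction. TMED3 had signals of 644, 572 and 619 on day -17, 819.9, 949.9 and 884 on day 1, and 325, 571 and 306 on day 17. Pools 1 and 3 of day 17 were far below all others, and pool 2 lay just under the lowest of day -17. TMED3 fell to 0.435 of its day 1 level (-1.20 ± 0.22, adjusted p = 0.0083), the largest fall among the members in that interval, and the only 1 of the 8 calls of that interval that held without each array in turn. Against day -17 it was lower by 0.67 ± 0.22 (adjusted p = 0.0303). The latter call did not hold without day -17 pool 1, 2 or 3 or day 17 pool 1 or 3 (adjusted p 0.0514 to 0.11) or with each array centred on its median or after quantile normalization (adjusted p = 0.0539 and 0.0776), in a range of 2.95e-05 to 0.11 over 20 alternatives. TMED7 had signals of 1209.8, 1191 and 1248 on day -17, 2641, 3125 and 4061 on day 1, and 2447, 2798 and 2856 on day 17, with every later pool above day -17, and rose by 1.41 ± 0.16 (adjusted p = 0.000326). Its day 17 difference of 1.15 ± 0.16 from day -17 turned to -0.16 with E. coli scaling. TMED2 had signals of 8939, 8828 and 9809.9 on day -17, 12941, 12871 and 13917 on day 1, and 10018, 9283 and 8954 on day 17, with every day 1 pool above all others. TMED2 rose by 0.53 ± 0.10 (adjusted p = 0.00449, 0.10 with E. coli scaling, not passing at an adjusted p of 0.391) and fell by 0.49 ± 0.10 (adjusted p = 0.0115), with 0.04 left between day 17 and day -17. The TMED2 fall did not hold without day 17 pool 3 (adjusted p = 0.0503), in a range of 2.52e-05 to 0.0503 over 20 alternatives.

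TMED10, which pairs with TMED2, rose by 0.44 ± 0.10 by day 1 (adjusted p = 0.0143) and differed by 0.23 ± 0.10 afterwards, without passing (adjusted p = 0.176). The TMED10 call did not hold without day -17 pool 3 or day 1 pool 3 (adjusted p = 0.0536 and 0.051) or with E. coli scaling or after quantile normalization (adjusted p = 0.953 and 0.0781), in a range of 0.000102 to 0.953 over 20 alternatives. TMED5 rose by 0.72 ± 0.14 (adjusted p = 0.0048, 0.29 with E. coli scaling, not passing at an adjusted p of 0.122), and TMED4 passed only on day 17 against day -17 (0.46 ± 0.13, adjusted p = 0.0135, turned to -0.84 with E. coli scaling), while another of its probe sets rose by 0.61 by day 1 (adjusted p = 0.0121). LMAN2, a lectin for high-mannose glycans, rose by 0.61 ± 0.14 by day 1 (adjusted p = 0.0128). The LMAN2 call did not hold with E. coli scaling or with the mean over its probe sets (adjusted p = 0.299 and 0.133), in a range of 0.00372 to 0.299 over 20 alternatives. LMAN2L was below the filter on low signals. Of the 3 members with a SEC symbol outside these roles, SEC14L1, a lipid-binding SEC14-like protein, had signals of 1603, 1372 and 1681 on day -17, 2223, 2292 and 2210.3 on day 1, and 1784, 1934 and 1528 on day 17, which did not overlap between day -17 and day 1. It rose by 0.54 ± 0.13 (adjusted p = 0.0162). The SEC14L1 call did not hold without day -17 pool 2 (adjusted p = 0.0602) or with E. coli scaling (adjusted p = 0.566), in a range of 0.0107 to 0.566 over 20 alternatives. SEC14L2 and SEC22C passed in no comparison.

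Related genes could be compared within an array, where the scaling cancels. The log2 ratio of both genes was taken in each pool for 14 pairs and 3 comparisons, 42 in all. The ratios of the 2 days did not overlap in 12, 7 and 11 of the 14 pairs, against 41.3%, 37% and 60.2% of all pairs of tested genes. An exact two-sided permutation test of 3 against 3 pools cannot go below 0.1, and the smallest p adjusted over the 42 was 0.14, so no pair passed. The log2 ratio of COPG1 to COPG2 was 2.00 higher on day 1 and 1.98 higher on day 17 than on day -17, and its values on day 1 and day 17 overlapped. The ratio of SEC23A to SEC23B differed by -1.53 by day 1 and by -2.13 by day 17, without overlap with day -17 in either.

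The ratio of TRAM1 to TRAM2 was 1.37 higher on day 1 and 1.81 higher on day 17 than on day -17, without overlap. TRAM1 had signals of 9964, 9756 and 10656 on day -17, 17777, 20808 and 24638 on day 1, and 28125, 26258 and 26386 on day 17, and TRAM2 had 1075, 805 and 992 on day -17, 1323, 520.5 and 629 on day 1, and 806, 673 and 694 on day 17, of which day 1 pool 1 was the highest of all 9. The ratio of SEC11A to SEC11C differed by -1.33 by day 1 and by -0.39 from day 1 to day 17, without overlap in either interval. TMED3 to TMED7 differed by -0.88 and then by -0.94, also without overlap. For KDELR1 to KDELR3 the ratio differed by -1.38 by day 1 and by 0.98 afterwards, and its values on day 17 overlapped with those of day -17 (-0.40).

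**Figure D4:**
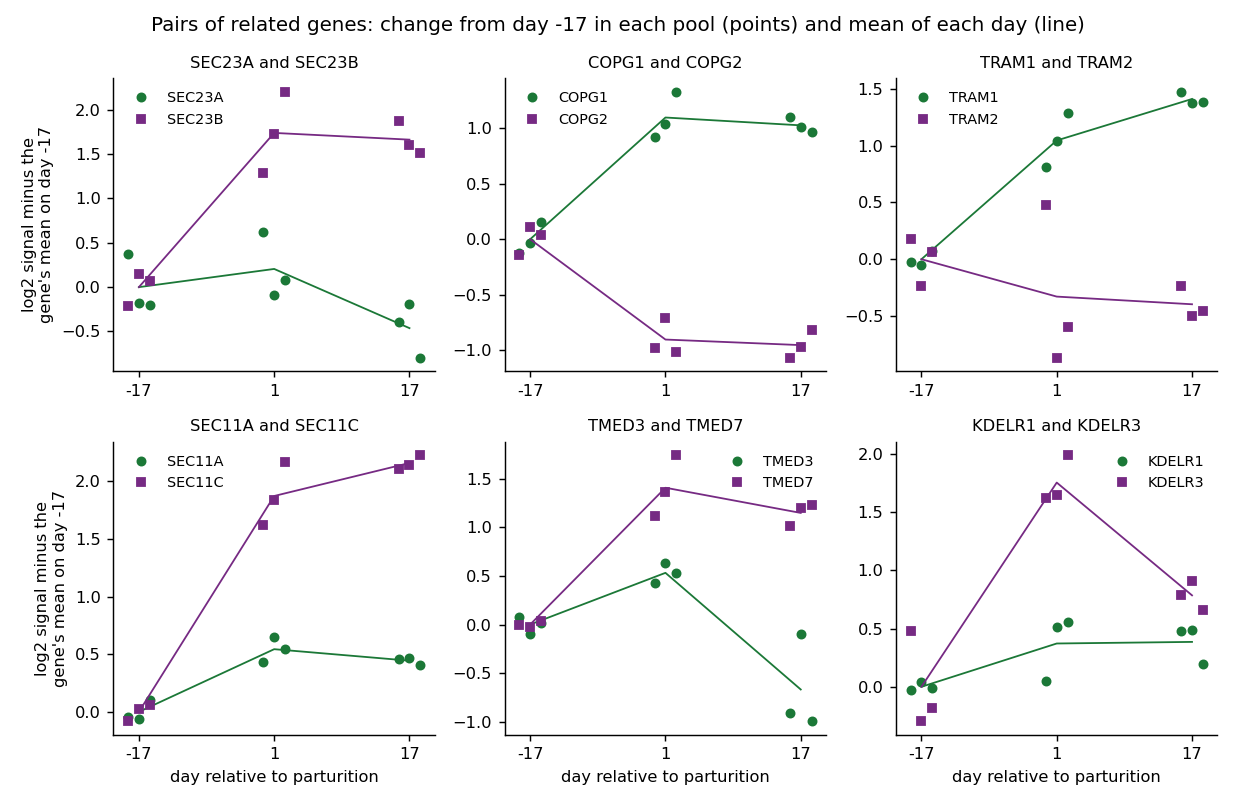
Log2 signal of 6 pairs of related genes in each pool, minus the gene's mean on day -17 (points), with the mean of each day (lines). In each pair 1 gene lies well above the other on day 1. The distance between the lines, which does not depend on the scaling of an array, is 2.00 for COPG1 and COPG2 and 1.37 for TRAM1 and TRAM2 on day 1.

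A gene was represented by its probe set of highest mean log2 signal, and 19 members had several tested probe sets. Signs differed among them in 2 genes from day -17 to day 1 (SEC31A and SRP19), in 10 from day 1 to day 17, and in 4 from day -17 to day 17 (SAR1A, SEC31A, SRP19 and TMED7), and in no gene were probe sets called in both directions. The size of a difference varied between probe sets. SAR1A, whose representing probe set differed by 0.30 by day 1 without passing, had another that rose by 1.68 (adjusted p = 9.94e-05). TMED10 rose by 0.44 on 1 probe set and 2.27 on the other, and the 4 probe sets of TRAM1 by 0.95 to 2.27. For TMED7, 3 of 4 probe sets rose by day 1, and the fourth fell by 0.96 from day 1 to day 17 (adjusted p = 0.0117).

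Of the genes that work beside the members under other symbols, part also rose by day 1. Their counts can be read against the 15.3% and 10.4% of all genes that rose and fell by day 1, the 8.02% and 8.57% from day 1 to day 17, and the 23.8% and 23.8% over both intervals. Of 42 tested genes of ER to Golgi traffic, 18 rose and 1 fell by day 1 (median 0.40), 2 rose and 3 fell from day 1 to day 17, and 19 were higher and 1 lower on day 17 than on day -17. For the traffic genes, E. coli scaling gave 10 higher and 10 lower by day 1, 0 and 37 from day 1 to day 17, and 2 and 31 over both, and leaving out 1 array gave 16 to 19 and 0 to 1, 0 to 2 and 0 to 4, and 17 to 20 and 1 to 2. SURF4, a cargo receptor of the ER, rose by 1.35 ± 0.16 by day 1 (adjusted p = 0.000449), and RAB1A, a GTPase of ER to Golgi transport, by 1.35 ± 0.14 (adjusted p = 0.000238). Of 23 tested genes of ER insertion and its chaperones, 12 rose and 1 fell by day 1 (median 0.59), 2 rose and 3 fell afterwards, and 13 were higher and 1 lower on day 17 than on day -17. For the insertion and chaperone genes, E. coli scaling gave 6 higher and 7 lower by day 1, 0 and 21 from day 1 to day 17, and 2 and 15 over both, and leaving out 1 array gave 10 to 13 and 0 to 2, 0 to 3 and 1 to 3, and 12 to 13 and 1 to 2. The ER chaperones HYOU1 and DNAJC3 rose by 1.77 ± 0.20 (adjusted p = 0.000405) and 1.74 ± 0.21 (adjusted p = 0.000525).

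HSPA5 (BiP), the main HSP70 chaperone of the ER lumen and a ligand of the KDEL receptors, rose by 1.50 ± 0.17 by day 1 (adjusted p = 0.000314) and fell by 0.72 ± 0.17 by day 17 (adjusted p = 0.0193). The fall did not hold without day 1 pool 2 or 3 or day 17 pool 2 or 3 (adjusted p 0.0519 to 0.0751), in a range of 4.59e-05 to 0.0751 over 20 alternatives. CKAP4, a protein of ER sheets, fell by 1.08 ± 0.17 in the same interval (adjusted p = 0.00498). Of 6 tested transcription factors of the ER stress response and their partners, 2 rose and 1 fell by day 1, none passed afterwards, and 2 were higher and 2 lower on day 17 than on day -17. Their median was -0.15 by day 1 and -0.38 on day 17 against day -17, with 2 of the 6 above 0 in each. For the transcription factors, E. coli scaling gave 1 higher and 3 lower by day 1, 0 and 6 from day 1 to day 17, and 0 and 6 over both, and leaving out 1 array gave 2 and 0 to 1, 0 and 0 to 1, and 2 and 1 to 2. XBP1 and ATF4, the 2 of these factors that were called higher by day 1, rose by 0.73 ± 0.12 (adjusted p = 0.00228) and 0.73 ± 0.11 (adjusted p = 0.00187). With E. coli scaling the XBP1 value was 0.30 and did not pass (adjusted p = 0.0615, in a range of 0.000715 to 0.0615 over 20 alternatives).

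The summed signal of markers moved between days for some cell types, while that of endothelium overlapped on all 3 days. A sum follows its brightest genes. Counts of markers can be read against the shares of all genes, 15.3% higher and 10.4% lower by day 1. These shares were 8.02% and 8.57% from day 1 to day 17, and 23.8% and 23.8% over both. Milk protein genes summed to 60484 to 85934 on day -17, 216822 to 304308 on day 1 and 458643 to 468487 on day 17. These 7 genes had 6 rises by day 1, 5 in the next interval (1 without day 17 pool 1 or 3, 2 without day 1 pool 1 or 2 or day 17 pool 2, 2 with median centring or no intensity trend, and 0 after quantile normalization) and 7 over both. For the milk protein genes, E. coli scaling gave 5 higher and 0 lower by day 1, 0 and 0 from day 1 to day 17, and 5 and 0 over both, and leaving out 1 array gave 6 to 7 and 0, 1 to 7 and 0, and 7 and 0. Plasma cells also secrete heavily. Their 4 markers summed to 9964 to 13890.3, 19989.8 to 20948 and 40911 to 44176, with 1 rise by day 1 (FKBP11, 1.75 ± 0.17, adjusted p = 0.000152, an ER prolyl isomerase that secretory epithelium may also make), 2 from day 1 to day 17 (TNFRSF17, 3.60 ± 0.40, adjusted p = 0.0013, and JCHAIN, 1.76 ± 0.22, adjusted p = 0.0018) and 3 over both. For the plasma cell markers, E. coli scaling gave 1 higher and 1 lower by day 1, 2 and 1 from day 1 to day 17, and 2 and 1 over both, and leaving out 1 array gave 1 and 0 to 1, 2 and 0, and 3 and 0. The 7 fibroblast markers summed to 43851 to 66576, 21541 to 58451 and 20792 to 23056, with 2 falls by day 1 (1 without day -17 pool 1 or 3 or day 1 pool 3, and 4 without day 1 pool 1), 0 in the next interval (2 without day 1 pool 2, 3 with either pool block) and 5 over both. For the fibroblast markers, E. coli scaling gave 0 higher and 5 lower by day 1, 0 and 6 from day 1 to day 17, and 0 and 7 over both, and leaving out 1 array gave 0 and 1 to 4, 0 to 1 and 0 to 2, and 0 and 5 to 6.

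Of the 7 luminal epithelium markers, with sums of 16219 to 34052, 25478 to 41213 and 42140.0 to 46198, 3 rose by day 1, 1 rose in the next interval, and 3 were higher and 2 lower on day 17 than on day -17. For the luminal epithelium markers, E. coli scaling gave 3 higher and 2 lower by day 1, 0 and 3 from day 1 to day 17, and 1 and 4 over both, and leaving out 1 array gave 2 to 3 and 0 to 2, 0 to 1 and 0 to 1, and 3 and 0 to 3. The 6 myoepithelium markers summed to 25273 to 31984, 39425 to 52024 and 35707 to 57902, and had 2 rises by day 1 and 4 over both intervals. For the myoepithelium markers, E. coli scaling gave 2 higher and 0 lower by day 1, 0 and 4 from day 1 to day 17, and 1 and 3 over both, and leaving out 1 array gave 2 and 0, 0 to 1 and 0 to 1, and 3 to 4 and 0 to 1. The 7 adipocyte markers summed to 9041 to 24027, 18386 to 24681 and 28768 to 28894. They had 2 falls by day 1 (0 without day -17 pool 1 or 3), 1 rise in the next interval, and 2 higher and 3 lower over both intervals. Their median log2 difference on day 17 against day -17 was -2.03, with 2 of 7 above 0, so the rising sum does not stand for most of these genes. For the adipocyte markers, E. coli scaling gave 0 higher and 2 lower by day 1, 0 and 4 from day 1 to day 17, and 0 and 6 over both, and leaving out 1 array gave 0 to 1 and 0 to 3, 0 to 1 and 0 to 1, and 1 to 2 and 2 to 5. The 8 measured endothelium markers summed to 6043 to 10280.2, 6543 to 9991 and 6197 to 7466. The 7 tested ones had 1 fall in each comparison, each of which did not hold in at least 1 leave-out of an array. For the endothelium markers, E. coli scaling gave 0 higher and 1 lower by day 1, 0 and 5 from day 1 to day 17, and 0 and 7 over both, and leaving out 1 array gave 0 and 0 to 1, 0 to 1 and 0 to 1, and 0 and 0 to 2. The 5 macrophage markers summed to 4108 to 5136, 4045 to 7984 and 3033 to 3864, with 1 rise by day 1 and 1 rise and 1 fall over both. For the macrophage markers, E. coli scaling gave 0 higher and 1 lower by day 1, 0 and 5 from day 1 to day 17, and 0 and 4 over both, and leaving out 1 array gave 0 to 2 and 0 to 1, 0 and 0 to 2, and 1 and 1 to 2. No signal on any array was 0. The part of these cell types in the members' changes was not tested.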

How the data were processed

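Of 24123 probe sets, measured on 9 arrays of pooled mammary RNA (3 pools on each of 3 days), 124 Affymetrix control probe sets were left out. The deposited values are linear intensities, made by the authors with MAS5 per the submitters' processing notes, whose version is not given in the sources used here. They lay between 0.0632 and 83677. In the platform annotation 1 symbol was given for 10099 probe sets, several for 198 and none here for 13826, and no probe set with several symbols was used.

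Probe sets at or above their array's 40th percentile in at least 3 arrays (15519) were taken to log2 with no pseudocount. They were fitted in limma 3.58.1 under R 4.3.3 over all 9 arrays by day alone (lmFit, then eBayes with a trend in intensity, which left 10.3 degrees of freedom, prior included). P-values were two-sided and adjusted by Benjamini-Hochberg over all tested probe sets within a comparison, at 0.05. The code was tested on simulated data. A gene was its tested probe set of highest mean log2 signal, which gave 5670 genes. Of the 52 member genes, 49 were above the filter level on all 9 arrays (not COPB2, SEC31B and SEC22C), and none passed through 1 day only.

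Pools carry numbers 1 to 3 on each day, and the labels do not say whether a number marks the same sows, although each sow was biopsied on every day. Deviations from the day means of same-numbered pools correlated at 0.235 to 0.506 (day 1 and day -17), 0.105 to 0.130 (day 17 and day -17) and 0.0960 to 0.107 (day 17 and day 1). In the first and the second of these every pair was over 0.1. Differently numbered pools correlated at -0.387 to 0.113, -0.0739 to -0.0421 and -0.0768 to -0.0268, in the same order. In each comparison every same-numbered value lay above every differently numbered one. The deviations of a day sum to 0 over its 3 pools, so these correlations are not independent of each other. A positive same-numbered value pulls the differently numbered ones down. The number was nonetheless a block only in alternatives.

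Members, lists and pairs were chosen with earlier results of these data known. Values in every pool are given for the largest called change of a role in each direction from day -17 to day 1 and from day 1 to day 17, for members called in opposite directions in both, and for the 5 pairs with the largest ratio changes. Other members are given by their differences, and of each list at most 2 called genes in each direction, plus HSPA5, chosen after its values were seen. The alternatives were other normalizations, pseudocount, filters, variance models, samples, blocks, gene summaries and a reading of the rule in which SRP needs a digit, and leaving out each array.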

Additional observations from a re-analysis of the deposited data

How the results depend on the processing

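The counts and medians of member genes kept their direction under quantile normalization, median centring, a pseudocount of 16, other filters, both blocks, a variance without intensity trend, the 6 compared pools by themselves and the mean of all probe sets of a gene, with the exceptions given here. Scaling to the 21 E. coli control probe sets moved most of them. It gave 17 rises, 5 falls and a median of 0.14 for day 1 against day -17, 0 rises, 49 falls and a median of -0.96 for day 17 against day 1, and 3 higher, 40 lower and a median that reversed to -0.83 for day 17 against day -17. Under it SEC63 reversed to -0.011 on day 1 against day -17 and SEC62 to -0.15 on day 17 against day 1. On day 17 against day -17 the 19 log2 differences that reversed were SSR2 -0.78, TMED10 -0.64, COPB1 -0.32, SEC11A -0.86, SEC63 -0.82, KDELR2 -0.54, SRP14 -0.44, COPG1 -0.28, TMED7 -0.16, SAR1B -0.50, SRP19 -0.85, KDELR3 -0.52, SRP54 -0.36, TMED4 -0.84, SEC61A1 -0.82, SRP9 -0.60, TMED5 -0.75, SRPRB -0.14 and SEC13 -0.35. The cause was not tested. Median centring gave a median of 0.69 for day 1 against day -17. For day 17 against day 1 the count of rises was 2 after quantile normalization and 3 with the 60th percentile filter, and the count of falls was 4 with no intensity trend. Falls for day 1 against day -17 numbered 2 in a fit of the 6 pools alone. A minimum change of 2-fold left 15 rises and 0 falls, 0 and 1, and 11 and 1 in the 3 comparisons. The 3 paralogue ratios that reversed did so in the mean of all probe sets of a gene: SAR1A to SAR1B 0.14 (day 1 against day -17), KDELR1 to KDELR2 0.059 and TMED5 to TMED7 0.18 (both day 17 against day -17).

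With the pool number as a block, rises for day 17 against day 1 were 2 (fixed replicate block) and 4 (random replicate block) instead of 1, with SRPRA called under both and COPB1 and SRP9 under the random one. Falls in that comparison were 9 under each instead of 7: both added SSR4 and SEC61B, and the fixed block SEC23A. On day 17 against day -17 the higher members were 28 and 30 instead of 27, with SEC24D added by both and KDELR1 and SEC22C by the random block. The fixed block ended 1 member's call, the fall of COPA from day 1 to day 17 (adjusted p = 0.0505, in a range of 5.16e-05 to 0.147 over 20 alternatives), and neither block ended any other. Leaving out each array in turn gave 27 to 37 rises, 1 to 2 falls and medians of 0.52 to 0.70 for day 1 against day -17. It gave 0 to 5 rises, 2 to 10 falls and medians of -0.18 to -0.054 for day 17 against day 1, and 25 to 30 higher, 1 to 4 lower and medians of 0.46 to 0.49 for day 17 against day -17. Of the calls of members, 27 of 36, 1 of 8 and 26 of 31 held without each array in turn, and 18, 1 and 4 under every alternative run. Paralogue ratios without overlap numbered 30, and 26 with the mean of all probe sets of a gene. Leaving out 1 array gave 30 to 32, but that count could not fall, since removing a pool cannot create an overlap.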
